A study of Homo sapiens with 4 samples.

Results

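The 10 genes described here encode neuronal microtubule proteins: the stathmins STMN1, STMN2, STMN3 and STMN4, the doublecortins DCX and DCLK1, the microtubule-associated proteins MAP1B, MAP2 and MAPT (tau), and the neuronal beta-tubulin TUBB3. They were chosen by symbol, and each matched 1 of the 64252 Ensembl gene IDs in the count table. All 10 passed the low-count filter that left 19610 genes for testing. RNA was sequenced from an established neuroblastoma cell line with amplified MYCN, SK-N-BE(2). The shScb group (genotype label: control) had been transfected with a scramble short hairpin RNA, and the shTTC8 group (genotype label: TTC8-knockdown) with a hairpin against TTC8, a subunit of the BBSome that carries membrane proteins at the primary cilium. Each group held 2 libraries of the same line, and the labels give no time point, number of hairpins or clone. The labels do not state separate cultures for a group's libraries, so every p-value rests on a spread that may be technical. In bulk samples, fewer cells that express a gene and less RNA per cell cannot be told apart.

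Microtubules are hollow polymers of alpha- and beta-tubulin that grow and shrink at their ends and form the tracks for transport in axons and dendrites. Stathmins bind free tubulin dimers and promote the shrinking of microtubules, whereas doublecortins and MAPs bind along the polymer and stabilise or bundle it. In neurons MAP2 lies mainly in dendrites and tau mainly in axons, and DCX, STMN2 and TUBB3 are widely used as markers of immature or newly formed neurons, including sympathetic neuroblasts.

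The hairpin's target was checked first. TTC8 had 9888 and 10398 counts in shScb 1 and 2 and 1130 and 1268 counts in shTTC8 1 and 2, and 15.4% of its shScb level remained (-2.70 ± 0.07 on the log2 scale, SE; edgeR adjusted p of 5.38e-12). Library totals were 51168727 and 55331449 counts in shScb and 38284663 and 40863047 in shTTC8. Markers of the sympathetic lineage were present in every library: HAND2, a transcription factor of sympathetic neurons, had 37213 counts or more, and MYCN, the oncogene amplified in this line, 144213 or more. The defining glial genes SOX10 and FOXD3, the endothelial gene PECAM1, the T cell gene CD3E, the globin gene HBB and the epithelial gene CDH1 had 0 counts in every library. Other genes of the same lists did have counts: S100B 155 to 205, VWF 4 to 71, PTPRC 124 to 817 and EPCAM 155 to 261 over the 4 libraries. No fibroblast marker was at 0 in all libraries. However, FAP had counts only in shTTC8 2 (2 counts) and COL1A2 only in shScb 1 and 2 (7 and 5 counts). Neither passed the low-count filter.

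The shTTC8 against shScb comparison asked which of these genes differed when TTC8 was lowered. STMN4, DCX, MAP2 and TUBB3 rose, STMN3 fell, and STMN1, STMN2, DCLK1, MAP1B and MAPT were not called (edgeR quasi-likelihood test, adjusted p under 0.05 over all tested genes). Among all tested genes 15.2% were higher and 16.7% lower, together 31.9%. Among protein-coding genes with a mean of at least 5 CPM (the usual depth-scaled count, here on TMM-scaled library sizes), as all 10 are, 21.2% were higher and 23.5% lower, together 44.7%. The 5 called of 10 members, or 50%, lay near that last share. The members' median log2 fold change was 0.12, beside 0.004 over all tested genes. The groups did not overlap for 8 of the 10, and likewise for 65.5% of all tested genes and 75.3% of the abundant protein-coding ones. Together the 10 genes took 3806 and 3701 CPM in shScb 1 and 2, and 3929 and 3989 CPM in shTTC8 1 and 2.

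**Figure D1:**
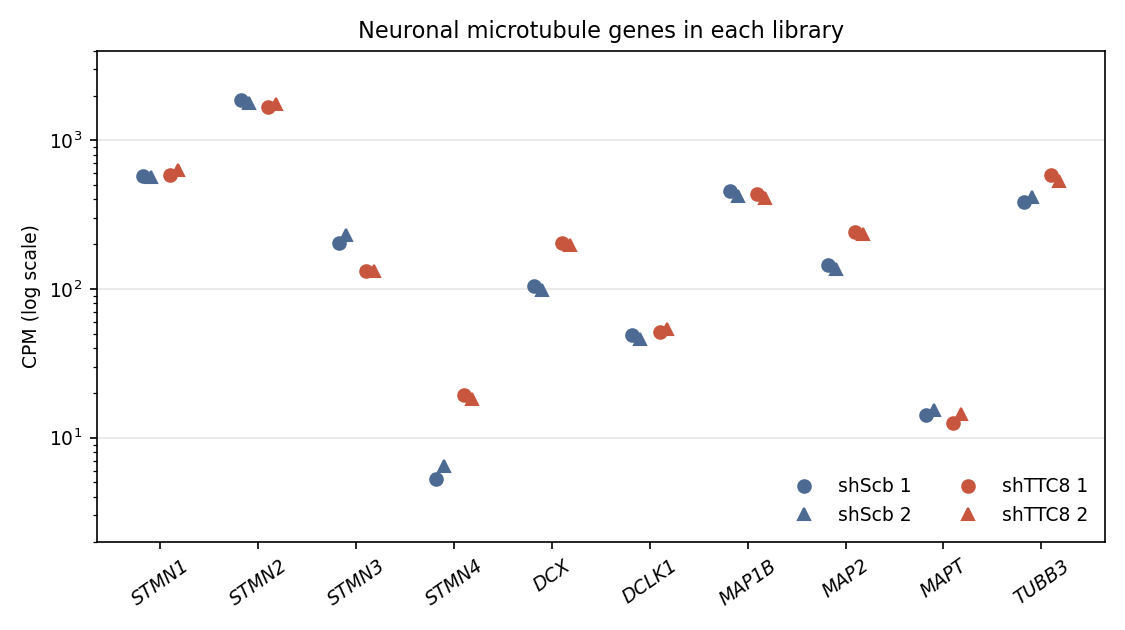
CPM of each of the 10 genes (log axis) in the 4 libraries, 1 point per library, with shScb in blue and shTTC8 in red, circles for replicate 1 and triangles for replicate 2. The red points lie above the blue ones for STMN4, DCX, MAP2 and TUBB3 and below them for STMN3, while MAP1B and MAPT overlap.

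Sequence before a RefSeq start is shown for the called members whose window overlapped no exon, STMN3, which fell, and DCX, which rose. RefSeq's promoter table (GRCh38.p14) holds 7 of the 10 members, and STMN2, STMN4 and MAPT are not among them. For STMN3 and DCX alone among the called members, the 250 bases before a RefSeq start overlapped no exon of GENCODE 29. Both windows lie on the minus strand inside the GENCODE span of their gene, directly before an exon. Each therefore belongs to a start downstream of the gene's outermost one. Either may also be intron of a transcript that starts further upstream, and promoter activity was not tested. Sequences run 5′ to 3′ in the direction of transcription, and capitals mark E-boxes (CANNTG, the core bound by basic helix-loop-helix factors) and GC boxes (GGGCGG on either strand, the core bound by SP-family factors). The STMN3 window is chr20:63652767-63653016 and the DCX window is chrX:111411147-111411396.
STMN3: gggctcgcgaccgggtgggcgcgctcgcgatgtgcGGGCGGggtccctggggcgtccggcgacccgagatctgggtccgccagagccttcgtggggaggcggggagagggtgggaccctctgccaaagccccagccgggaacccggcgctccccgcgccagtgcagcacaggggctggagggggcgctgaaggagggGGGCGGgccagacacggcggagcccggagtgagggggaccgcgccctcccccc
DCX: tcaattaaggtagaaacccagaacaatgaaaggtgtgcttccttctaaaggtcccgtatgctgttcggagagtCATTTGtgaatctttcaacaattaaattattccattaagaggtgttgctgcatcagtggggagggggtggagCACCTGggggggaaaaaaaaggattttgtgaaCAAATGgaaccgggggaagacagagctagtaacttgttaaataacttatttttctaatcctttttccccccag
The STMN3 window was 78% G and C and held 2 GC boxes and 0 E-boxes. The DCX window was 42% G and C and held 3 E-boxes and 0 GC boxes. Neither held CACGTG, and no E-box overlapped a GC box. Of 35116 RefSeq windows of the same length, 61.8% held a CANNTG, 42.6% a GC box and 6.34% a CACGTG, so these matches are common and describe the letters only.

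The stathmins split 3 ways. STMN4, a stathmin largely restricted to the nervous system, stood at 5.26 and 6.42 CPM in shScb 1 and 2 and at 19.3 and 18.3 CPM in shTTC8 1 and 2 (266, 349, 750 and 756 counts). Both shTTC8 libraries were far above both controls, and the groups did not overlap. STMN4 (ENSG00000015592, chromosome 8, 27235323 to 27258420, GRCh38) rose 3.21-fold, from 5.84 ± 0.819 to 18.8 ± 0.739 CPM (SD over 2 libraries). The log2 fold change was 1.68 ± 0.13 (SE), with an edgeR adjusted p of 1.97e-07. It was the largest rise among the 10 and ranked 161st from the top of 14084 tested protein-coding genes.

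STMN3, also called SCLIP, a Golgi-associated neuronal stathmin, moved the other way. It stood at 205 and 230 CPM in shScb and at 132 and 133 CPM in shTTC8, and the nearly equal shTTC8 values lay below both controls. STMN3 (ENSG00000197457, chromosome 20, 63639705 to 63657682) fell to 0.608 of its shScb level, from 217 ± 17.2 to 132 ± 0.571 CPM (SD over 2 libraries). The log2 fold change was -0.72 ± 0.07 (SE), with an edgeR adjusted p of 1.26e-06. Within each library, which needs no scaling between libraries, the ratio of STMN4 to STMN3 counts per exon length was 0.0236 and 0.0257 in shScb and 0.135 and 0.127 in shTTC8, a 5.30-fold rise. With 2 libraries a group, an exact permutation test of such a ratio cannot go below p = 0.333, so the ratios are given as descriptions.

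The most abundant stathmins differed little. STMN2, or SCG10, which acts in growing axons (ENSG00000104435, chromosome 8, 79610814 to 79666175), stood at 1871 and 1768 CPM in shScb and 1667 and 1765 CPM in shTTC8. The shTTC8 libraries were the lower ones, but shTTC8 2 and shScb 2 were almost level. Its log2 fold change was -0.08 (95% interval -0.22 to 0.05, edgeR adjusted p = 0.346). STMN1, also called oncoprotein 18, the widely expressed stathmin of dividing cells (ENSG00000117632, chromosome 1, 25884181 to 25906991), stood at 575 and 569 CPM in shScb and 585 and 633 CPM in shTTC8. Its log2 fold change was 0.09 (95% interval -0.04 to 0.22, edgeR adjusted p = 0.3). With an offset for transcript length and GC content STMN1 was called, at 0.19 (edgeR adjusted p = 0.00707). Neither interval of the 2 genes reaches the changes of STMN3 or STMN4.

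Of the summed stathmin counts per exon length, STMN2 held 83.1% and 81.6% in shScb and 83.2% in each shTTC8 library. The share of STMN3 was 7.68% ± 0.818 in shScb and 5.001% ± 0.178 in shTTC8, that of STMN1 9.77% ± 0.198 and 11.1% ± 0.180, and that of STMN4 0.190% ± 0.0318 and 0.654% ± 0.0518 (SD, n = 2). With counts not divided by exon length STMN2 held 70.4% and 68.7% in shScb and 69.4% and 69.2% in shTTC8. On that scale the mean share of STMN1 was 21.9% in shScb and 24.6% in shTTC8. On both scales the pool stayed mostly STMN2 in all 4 libraries, and the called genes were its minor components.

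The doublecortins carry paired tubulin-binding domains, and DCLK1 adds a kinase domain. DCX, which is active in migrating neuroblasts, stood at 105 and 98.6 CPM in shScb and at 203 and 198 CPM in shTTC8. The replicates lay close together and the groups were far apart. DCX (ENSG00000077279, chromosome X, 111293779 to 111412429) rose 1.97-fold, from 102 ± 4.45 to 201 ± 3.19 CPM (SD over 2 libraries). The log2 fold change was 0.98 ± 0.06 (SE), with an edgeR adjusted p of 3.68e-08. DCLK1 (ENSG00000133083, chromosome 13, 35768652 to 36131306) stood at 48.8 and 45.9 CPM in shScb and 51.2 and 53.7 CPM in shTTC8. Both shTTC8 values were above the controls, but the log2 fold change of 0.15 was not called (95% interval -0.01 to 0.31, edgeR adjusted p = 0.154). With the offset for length and GC content it was called, at 0.30 (edgeR adjusted p = 0.00179). The ratio of DCX to DCLK1 per exon length was 3.03 and 3.02 in shScb and 5.58 and 5.21 in shTTC8. Its level also depends on the length used. Per kilobase of the longest transcript, the shScb means were 10.8 CPM for DCX and 5.91 for DCLK1.

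The remaining doublecortin kinases, which are not among the 10, rose. DCLK2, the close relative of DCLK1, went from 55.01 to 89.8 CPM (0.71 ± 0.07 on the log2 scale, SE; edgeR adjusted p of 1.40e-06). DCLK3 went from 0.465 ± 0.0710 to 4.37 ± 0.549 CPM (SD over 2 libraries). The log2 fold change was 3.22 ± 0.28 (SE), with an edgeR adjusted p of 6.62e-07. In the 4-gene doublecortin family the share of DCX in counts per exon length was 39.4% ± 1.30 in shScb and 45.1% ± 0.0782 in shTTC8, and that of DCLK1 was 13.0% ± 0.415 and 8.37% ± 0.427 (SD, n = 2). The lower share of DCLK1 arose beside a CPM that was not lower, since the other members of the sum had grown.

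The MAPs also differed from each other. MAP2, the dendritic MAP, stood at 145 and 136 CPM in shScb and at 241 and 236 CPM in shTTC8. Every shTTC8 value was above every control. MAP2 (ENSG00000078018, chromosome 2, 209424058 to 209734118) rose 1.70-fold, from 140 ± 6.30 to 238 ± 3.88 CPM (SD over 2 libraries). The log2 fold change was 0.76 ± 0.06 (SE), with an edgeR adjusted p of 3.27e-07. MAP1B (ENSG00000131711, chromosome 5, 72107234 to 72209570), a MAP of growing axons that is made early in neuronal development, stood at 455 and 420 CPM in shScb and 434 and 410 CPM in shTTC8. Its groups overlapped, and its log2 fold change was -0.05 (95% interval -0.19 to 0.09, edgeR adjusted p = 0.599). MAPT (ENSG00000186868, chromosome 17, 45894382 to 46028334) stood at 14.3 and 15.4 CPM in shScb and 12.5 and 14.5 CPM in shTTC8. It was the least abundant MAP, with 487 to 838 counts a library, and also overlapped between groups (log2 fold change -0.14, 95% interval -0.38 to 0.11, edgeR adjusted p = 0.408).

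Within the sum of these 3 MAPs per exon length, MAP2 made up 25.4% ± 0.174 in shScb and 37.5% ± 0.471 in shTTC8, and MAP1B 72.5% ± 0.393 and 60.8% ± 0.690 (SD, n = 2). MAP1B was the main MAP transcript in all 4 libraries. The ratio of MAP2 to MAPT per exon length was 13.1 and 11.4 in shScb and 24.8 and 20.9 in shTTC8, a 1.87-fold rise. The level of this ratio depends on the length used, but its fold change does not. Per kilobase of the longest transcript, the shScb means were 14.5 CPM for MAP2 and 2.18 for MAPT. The counts are per gene and carry no information on splice forms, such as the number of tau's microtubule-binding repeats.

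**Figure D2:**
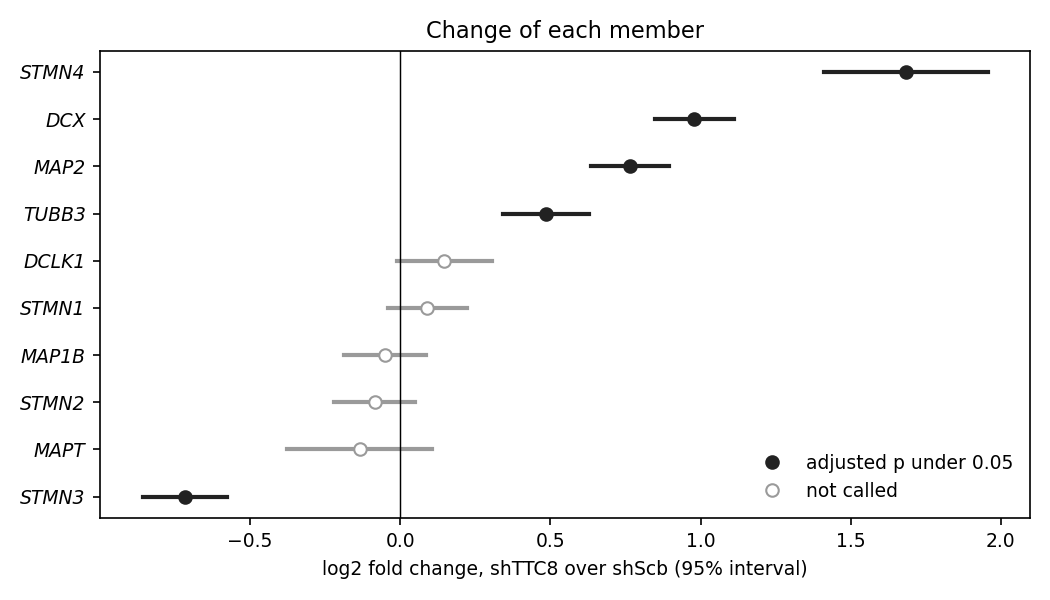
Log2 fold change of shTTC8 over shScb for each of the 10 genes, with its 95% interval from the edgeR fit, ordered by size. Filled points passed an adjusted p of 0.05. STMN4, DCX, MAP2 and TUBB3 lie to the right of 0 and STMN3 to the left, and the intervals of the other 5 genes include 0.

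TUBB3, the class III beta-tubulin of neurons, stood at 382 and 413 CPM in shScb and at 584 and 528 CPM in shTTC8. Both shTTC8 libraries were above both controls, with shTTC8 1 the highest. TUBB3 (ENSG00000258947, chromosome 16, 89921392 to 89938761) rose 1.40-fold, from 397 ± 21.6 to 556 ± 39.3 CPM (SD over 2 libraries). The log2 fold change was 0.49 ± 0.07 (SE), with an edgeR adjusted p of 6.59e-05. A read-through gene on the same strand covers 35.8% of its exonic bases and had 112 counts in all 4 libraries, 0.13% of those of TUBB3. How reads in the shared bases were counted is not known, so this low count cannot show that TUBB3 is unaffected. TUBB4A, another mainly neural beta-tubulin, rose by 0.83 (SE 0.10; edgeR adjusted p of 1.17e-05), from 16.5 ± 1.39 to 29.4 ± 1.13 CPM (SD, n = 2). TUBB, a beta-tubulin expressed in most dividing cells, changed by -0.23 (SE 0.06; edgeR adjusted p of 0.00654), and TUBB4B rose by 0.25 (SE 0.06; edgeR adjusted p of 0.00424). TUBB2A and TUBB2B, neuronal isotypes that are abundant here, were not called (log2 fold changes 0.13 and 0.11). The call of TUBB did not hold without shTTC8 replicate 1 (-0.25, edgeR adjusted p = 0.066) or without shTTC8 replicate 2 (-0.22, edgeR adjusted p = 0.111). That of TUBB4B did not hold without shTTC8 replicate 1 (0.24, edgeR adjusted p = 0.0693) or with the offset for length and GC content (0.11, edgeR adjusted p = 0.0685).

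Of the summed counts per exon length of 9 beta-tubulin genes, TUBB3 held 13.9% and 14.1% in shScb and 17.9% and 17.1% in shTTC8. Its share was thus 3.51 percentage points higher, and both shTTC8 shares lay above both shScb shares. With counts not divided by exon length the difference was 5.44 percentage points. The share of TUBB was 14.6% ± 0.483 in shScb and 11.1% ± 0.287 in shTTC8 (SD, n = 2). On this scale TUBB2B had the largest share in every library, between 29.6% and 32.1%. With counts not divided by exon length TUBB2B was above TUBB3 in both shScb libraries, but TUBB3 was above it in both shTTC8 libraries (29.5% and 28.4%, against 25.2% and 24.3%). Tubulin genes have near-identical paralogs and pseudogenes, and how shared reads were counted is not known, so tubulin levels and shares are uncertain.

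**Figure D3:**
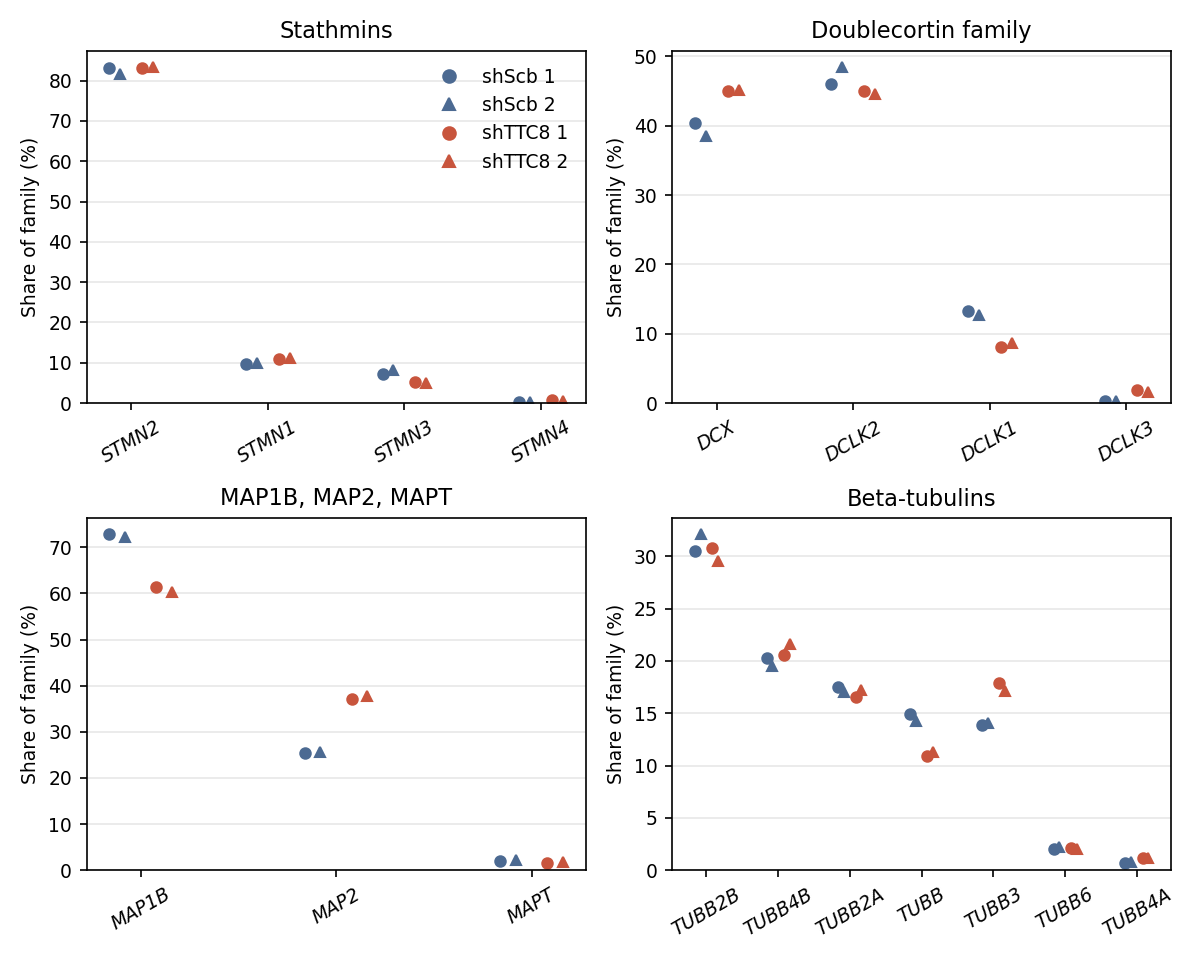
Share of each gene in its family's summed counts per exon length (percent), 1 point per library, for the stathmins, the doublecortin family, the 3 MAPs and the beta-tubulins above 0.5%. MAP2 moves from 25.4% to 37.5% and TUBB3 from 13.97% to 17.5% of their families, while STMN2 stays above 81% in all libraries.

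Levels were compared between genes per kilobase of exon. In shScb STMN2 led at 770 ± 30.9 CPM per kilobase, followed by STMN1 at 91.3 ± 0.657, TUBB3 at 89.7 ± 4.88, STMN3 at 71.7 ± 5.68, MAP1B at 34.6 ± 1.98, MAP2 at 12.1 ± 0.545, DCX at 9.97 ± 0.436, DCLK1 at 3.29 ± 0.141, STMN4 at 1.77 ± 0.249 and MAPT at 0.996 ± 0.0528 (SD, n = 2). Every neighbouring pair in that order was separated in both shScb libraries except STMN1 and TUBB3, whose values overlapped. In shTTC8 the order changed at 2 places: TUBB3, at 126 ± 8.88, stood above STMN1, at 97.2 ± 5.44, and STMN4, at 5.70 ± 0.224, stood above DCLK1, at 3.65 ± 0.122 CPM per kilobase (SD, n = 2). Divided by the longest transcript instead, the shScb values of TUBB3 and STMN1 again overlapped, with the mean of TUBB3 the higher (201 against 194). By the group means, only the exchange of STMN4 and DCLK1 therefore appeared with both lengths.

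Beyond the 10 genes, 6 lists of microtubule genes were examined, with 118 tested genes of which 37 rose and 23 fell, together 50.8%, beside 31.9% of all tested genes. Among the 104 of them that are protein-coding with a mean of at least 5 CPM, 33 rose and 22 fell, together 52.9%, beside 44.7% of all such genes. The lists were chosen with earlier results of these data known, so these shares describe the lists and test nothing. Of the 118, 44 rose and 17 fell when scaled by library size alone. Fewer of them were lower without shTTC8 replicate 1 or without shTTC8 replicate 2, fits that leave 1 library in that group. The list of other lattice-binding and bundling proteins was called most often, with 14 of 25 higher and 6 lower, together 80%. Its median log2 fold change was 0.30. This list also holds end-binding proteins (MAPRE1 and MAPRE3 higher, MAPRE2 lower) and the growth-cone protein GAP43 (lower), so its calls are not all of lattice binders. MAPRE3, the neuronal end-binding protein, rose from 11.5 ± 0.366 to 30.4 ± 0.856 CPM (SD over 2 libraries; 1.40 ± 0.09 on the log2 scale, SE), MAP7D2 rose by 1.18 (SE 0.09), and DPYSL5, a collapsin response mediator protein of growing neurites, by 0.98 (SE 0.06). MAP7, which recruits kinesin to microtubules, fell from 26.1 ± 2.89 to 9.49 ± 0.956 CPM (SD over 2 libraries; -1.46 ± 0.11 on the log2 scale, SE). Each of these 4 had an edgeR adjusted p of 3.39e-07 or less.

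Tubulin isotypes other than TUBB3 gave 4 higher and 2 lower of 14, together 42.9% (median 0.12). The background shares were 31.9% of all tested genes and 44.7% of the abundant protein-coding ones. Besides those above, TUBG1, the gamma-tubulin of nucleation, rose by 0.32 and TUBA1C by 0.58. Genes overlapping 5.77% and 10.6% of their exonic bases had 63.3% and 3732% as many counts, so both calls are uncertain. The call of TUBG1 did not hold without shTTC8 replicate 1 (0.22, edgeR adjusted p = 0.119), and that of TUBA1C with the offset for length and GC content (0.54, edgeR adjusted p = 0.0514). Tubulin-modifying enzymes gave 5 higher and 2 lower of 20, together 35% (median 0.07), near the same background shares. VASH1, a carboxypeptidase that removes the terminal tyrosine of alpha-tubulin, rose from 29.5 ± 4.21 to 87.9 ± 2.24 CPM (SD over 2 libraries; 1.57 ± 0.09 on the log2 scale, SE), and TTL, the ligase that puts this tyrosine back, changed by -0.39 (SE 0.06). ATAT1, the alpha-tubulin acetyltransferase, rose by 1.40 (SE 0.26) from a low level of 1.13 CPM. MATCAP1, a further detyrosinating protease, rose by 0.59 and TTLL5, a polyglutamylase, changed by -0.43. Genes overlapping their exons had 106% and 100% of their counts, and share 2.80% and 0.29% of the exonic bases.

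Plus-end and minus-end factors gave 4 higher and 5 lower of 23, together 39.1% (median -0.06). This share lay between those of all tested genes (31.9%) and of the abundant protein-coding ones (44.7%). APC, which binds microtubule tips and also acts in Wnt signalling, changed by -0.90 (SE 0.08), SLAIN2 by -0.63 (SE 0.08) and TACC2 by -0.35 (SE 0.07), while TACC1 rose by 0.46 (SE 0.11) and CLIP2 by 0.27 (SE 0.07). The call of TACC1 did not hold without shTTC8 replicate 2 (0.42, edgeR adjusted p = 0.0537) and that of CLIP2 without shTTC8 replicate 1 (0.20, edgeR adjusted p = 0.172). Tubulin folding and severing genes gave 3 higher and 5 lower of 13, together 61.5% (median -0.06). The tubulin cofactor regulator ARL2 rose by 0.57 (SE 0.07), and the severing enzymes KATNAL1 and FIGNL1 changed by -0.70 (SE 0.11) and -0.48 (SE 0.09). The folding cofactor TBCB rose by 0.51 (SE 0.08), with a gene that overlaps 12.5% of its exonic bases at 39.4% of its counts.

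Kinases and phosphatases that act on the 10 proteins gave 7 higher and 3 lower of 23 (median 0.16). Together this is 43.5%, beside 31.9% of all tested genes and 44.7% of the abundant protein-coding ones. CDK5R2, an activator of the tau and doublecortin kinase CDK5, rose from 17.2 ± 0.772 to 29.9 ± 0.448 CPM (SD over 2 libraries; 0.80 ± 0.09 on the log2 scale, SE), and the tau kinase GSK3A rose by 0.40 (SE 0.07). Subunits of PP2A, the main tau phosphatase, moved in both directions: the catalytic subunit PPP2CA changed by -0.43 (SE 0.06) and the scaffold subunit PPP2R1A rose by 0.29 (SE 0.06; edgeR adjusted p of 0.00167). The rises of CDK5 (0.53) and MAPK10 (0.85), a neuronal JNK, are uncertain, since overlapping genes had 888% and 651% of their counts. Those genes share 11.3% of the exonic bases of CDK5 and 0.73% of those of MAPK10.

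**Figure D4:**
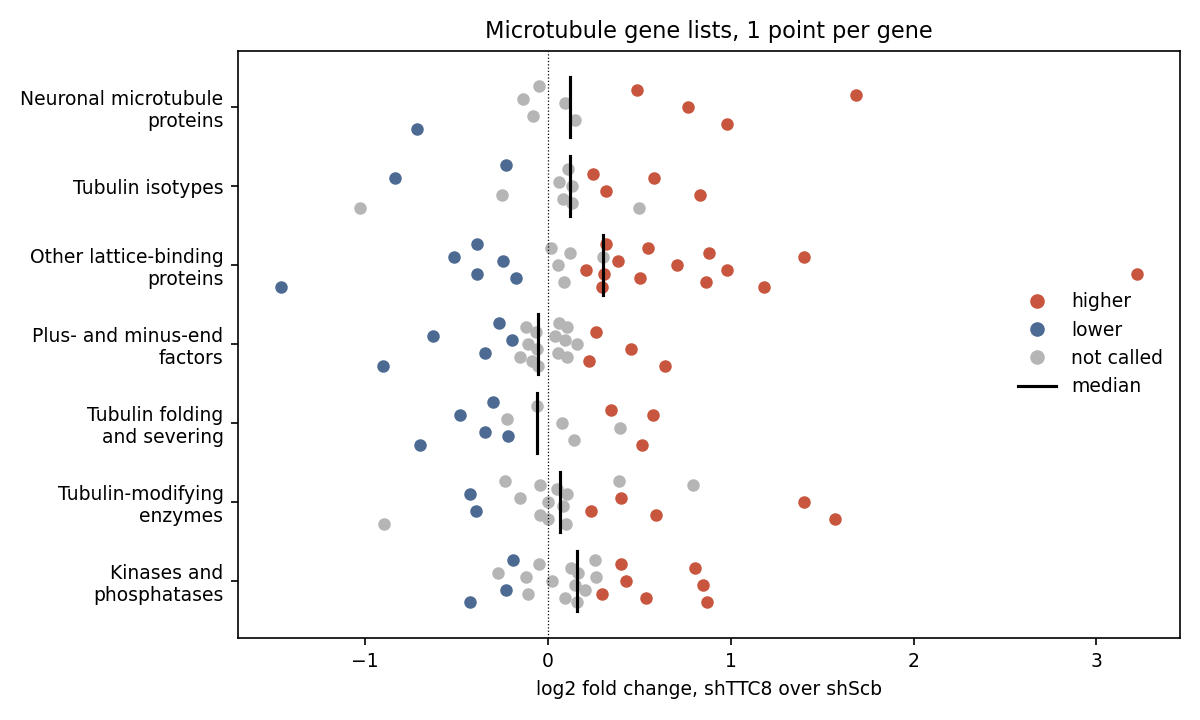
Log2 fold change of shTTC8 over shScb for each tested gene of the 10-gene set and of the 6 lists, 1 point per gene, red for higher, blue for lower and grey for not called, with the median as a black line. Points are spread vertically only for legibility. The lattice-binding list has the highest median, 0.30, and both signs occur among the called genes of each list.

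Markers of other cell types moved between the groups as well. Summed over 9 fibroblast markers the level was 671 to 697 CPM in shScb and 470 to 486 CPM in shTTC8, with 6 of the 7 tested lower and 1 higher. The 5 blood cell markers summed to 15.2 to 15.8 CPM in shScb and 3.38 to 4.13 CPM in shTTC8, nearly all from PTPRC, the leukocyte phosphatase. Endothelial markers summed to 1.21 to 1.64 CPM in shScb and 0.294 to 0.366 CPM in shTTC8, epithelial markers to 8.11 to 8.31 and 6.90 to 7.68 CPM, and glial markers to 5.48 to 6.04 and 5.97 to 6.82 CPM. The 9 adrenergic neuroblastoma markers summed to 9204 to 9560 CPM in shScb and 6827 to 6974 CPM in shTTC8. Of them 7 were lower and 1 higher. MYCN made up much of that sum, at 5592 and 5712 CPM in shScb and 3767 and 3869 CPM in shTTC8. Beside these marker calls, 31.9% of all tested genes and 44.7% of the abundant protein-coding ones were called. The part of the marker differences in the changes of the microtubule genes was not tested.

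By a fixed measure, the Euclidean distance of mean-centred log2 CPM over the 4 libraries, the protein-coding gene nearest to each called member was sought among 10755 with a mean of at least 5 CPM. STMN4 was nearest to TMEM151B (distance 0.104), DCX to SYT4, a synaptotagmin of neuronal vesicles (0.0354), MAP2 to SGPP2 (0.0321), TUBB3 to RAB40B (0.0162) and STMN3 to the polarity gene PARD3 (0.0232). With 4 libraries in 2 groups such a pattern holds little more than the size of the change, which was 0.97 for SYT4 and -0.73 for PARD3 on the log2 scale.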

How the data were processed

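RNA sequencing counts of 4 SK-N-BE(2) libraries were used, 2 per group by their titles. TruSeq libraries were made from TRIzol-extracted total RNA, per the labels' protocols. The submitters' processing notes name HISAT2 2.2.0 and hg38. Which counter and annotation were used is not given in the sources used here. Each cell of the authors' deposited table is a raw count of an Ensembl gene in 1 library. Positions and exon lengths came from GENCODE 29 (GRCh38, the assembly hg38 names).

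In R 4.3.3, edgeR 4.0.16 kept 19610 genes (filterByExpr), scaled libraries by TMM and compared the groups with the two-sided quasi-likelihood F test with robust fitting, adjusted by Benjamini-Hochberg over all tested genes at 0.05. A standard error is the log2 fold change divided by √F, and 95% intervals use the t distribution with the fit's degrees of freedom. CPM use TMM-scaled library sizes, except marker sums, which use library totals. Log2 CPM used a prior count of 2. Exon length is the union of a gene's exons. Alternatives used limma 3.58.1 (voom) and DESeq2 1.42.0. A fit with 1 library left out holds 1 library in a group, so its p-value rests on the spread within the other group. The test was tried on simulated counts.

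Members and lists were chosen with earlier results of these data known. Named were TTC8, all 10 members, up to 5 called genes of each list by smallest p, the beta-tubulins, HAND2 and MYCN. Some genes that this rule names are not reported here. DCLK2, PPP2R1A and the marker genes of other cell types were named after their values were seen. Of 174 list entries 173 matched an ID. Protein sequences were not used here. Replicates differed by more than sampling noise (chi-square per degree of freedom 12.5 in shScb and 6.71 in shTTC8), so their counts are not copies of each other. Whether a library was sequenced again cannot be told from this sum over all genes. Totals of 38284663 to 55331449 counts gave each member at least 266 counts a library.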

Additional observations from a re-analysis of the deposited data

How the results depend on the processing

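The calls of STMN4, DCX, MAP2, TUBB3 and STMN3 held under every alternative that kept 2 libraries a group. Among these were DESeq2, limma-voom, other scalings and filters, thinning to equal depth, and the main fit at an adjusted p under 0.01. Adjusted p-values there were at most 0.00145 (TUBB3, edgeR without the low-count filter). Over all 15 alternatives, which include each library left out, no sign of these genes changed. Their log2 fold changes ran over 1.55 to 1.83 for STMN4, 0.93 to 1.14 for DCX and 0.72 to 0.93 for MAP2. They ran over 0.34 to 0.56 for TUBB3 and -0.86 to -0.63 for STMN3. With the offset for transcript length and GC content 6 members were higher, since STMN1 and DCLK1 were added, and the cause was not tested. The direction of MAP1B, which was never called, turned with that offset (0.09) and without shScb replicate 1 (0.006). At an adjusted p under 0.01, by construction, 1917 genes were higher and 14 list genes lower. With each library left out in turn, 1880 to 3395 genes were higher and 2383 to 3555 lower, and 13 to 25 list genes were lower, the fewest genes higher without shTTC8 replicate 1. The TUBB3 share was 5.44 percentage points higher with counts not divided by exon length, a scale that weights genes by their length, and 3.12 to 3.89 points higher with each library left out. The titles give replicate numbers and do not say whether same-numbered libraries were handled together. Deviations of same-numbered libraries correlated at r = 0.03 across genes, which are not independent. This is 1 pair of differences, so it cannot show whether the libraries were paired. With the replicate number as a block 3092 genes were higher and 3343 lower, and the 4 higher members and the 1 lower member remained called. Depth is lower in shTTC8, and thinning to 38284663 counts per library changed no member's call.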
